A study of Gallus gallus with 4 samples.

Results

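The WNT ligands WNT2, WNT2B, WNT3A, WNT5A, WNT7B and WNT11 and the WNT response genes LEF1 and AXIN2 were followed through chicken embryonic lung at embryonic day 13 (E13) and embryonic day 20 (E20). These 8 genes were chosen by symbol among the 24356 genes of the RNA matrices, and 89 of the 87491 accessible regions measured at E13 were assigned to them in the deposited annotation. WNT proteins are secreted, lipid-modified signals that bind Frizzled receptors together with LRP5 or LRP6 co-receptors. In the canonical branch this stabilises beta-catenin, which binds LEF1 and related TCF proteins on DNA. AXIN2, an inhibitor within the beta-catenin destruction complex, is itself induced by the signal and is widely read as a marker of it. In the mammalian lung, WNT7B comes from the epithelium and WNT2 and WNT2B from the mesenchyme, and WNT5A and WNT11 mainly act through branches that do not need beta-catenin.

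All samples were wild-type chicken lung. At E13 a multiome assay read nuclear RNA and accessible chromatin from the same nuclei, after sorted populations of all lung cells had been mixed in about equal parts. At E20 one library held sorted epithelial cells (labelled nuclear RNA; the E20 epithelial library) and another held lung cells without CD45-positive immune cells (labelled total RNA; the E20 CD45neg library). Each of the 4 groups is 1 library, the number of embryos behind it is not given in the sources used here, and no difference below has a replicate check. Stage, assay and counting software changed together between E13 and E20 and cannot be told apart.

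After filtering, 7038 nuclei and 5186 and 2684 cells were kept, with 45946163, 25985162 and 11705517 UMIs (unique molecular identifiers, which mark single captured RNA molecules). Mitochondrial RNA made up a median of 42.5% of the UMIs of an E13 nucleus against 7.40% and 3.61% at E20. The E20 libraries shared 106 barcodes, of which 5 were kept in both. Cells were clustered without the WNT pathway genes and the clusters were grouped by marker genes. The EPCAM-marked (epithelial) group held 4563 nuclei at E13 and, at E20, 1930 cells of the epithelial and 90 of the CD45neg library. The COL1A2-marked (mesenchymal) group held 1703, 841 and 943, the KDR-marked (endothelial) group 145, 805 and 656, and the PTPRC-marked (immune) group 449, 206 and 14. At E20 an erythroid (red blood cell) group held another 1192 and 973 cells, and 204 cells of the epithelial library were given no group. Haemoglobin made up 7.85% and 30.2% of the kept UMIs of these libraries. The E20 epithelial library thus held many cells outside its label. The COL1A2-marked group was split into FGF10-marked, POSTN-marked and smooth muscle clusters. At E20 it also held clusters with neither marker, led by WIF1, TNFAIP6 or HHIP. Neither marker means that FGF10 and POSTN each stood below 0.2 of their highest COL1A2-marked cluster. Such cells still held 474 and 331 CPM of POSTN in the E20 epithelial and CD45neg libraries, against 11439 and 12317 in the POSTN-marked cells. Levels are in counts-per-million (CPM), the UMIs of a gene scaled by all UMIs of the group, with exact Poisson 95% intervals that cover counting error only. Fewer expressing cells and less RNA per cell cannot be told apart in such a sum.

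At E13 the ligands were divided between the epithelium and the mesenchyme, and the response genes were highest in the mesenchyme. Of the 7 members that reached 20 CPM, 2 were more than 2-fold higher in EPCAM-marked than in COL1A2-marked nuclei relative to the median gene, where 13.3% of the 5730 genes compared were. Another 4 were more than 2-fold lower, against 16.2% of all genes. The higher members were WNT3A and WNT7B, and the lower ones WNT2B, WNT11, LEF1 and AXIN2. WNT5A was the member within 2-fold. At E20 the levels differed: WNT3A and WNT7B stood at a small part of their E13 level, and WNT2B and WNT5A stood higher in the mesenchyme. The log2 ratio of EPCAM- over COL1A2-marked cells in the E20 epithelial library was 3.53 for WNT3A, -4.67 for WNT2B, -3.19 for WNT11 and -3.20 for AXIN2. At E13 it was 3.45, -3.55, -1.43 and -1.46. For WNT7B it went from 3.68 to 0.148, for LEF1 from -4.43 to -2.64 and for WNT5A from -0.600 to -1.31. Low counts limit some of these E20 values, since 1 CPM was added to each level. WNT3A had 0 UMIs in the COL1A2-marked cells of that library, so the size of its 3.53 depends on the added 1 CPM. WNT7B rested on 13 UMIs in EPCAM-marked and 3 in COL1A2-marked cells, and LEF1 on 6 in EPCAM-marked cells. The plot of levels by cell group gives all 8 genes.

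**Figure D1:**
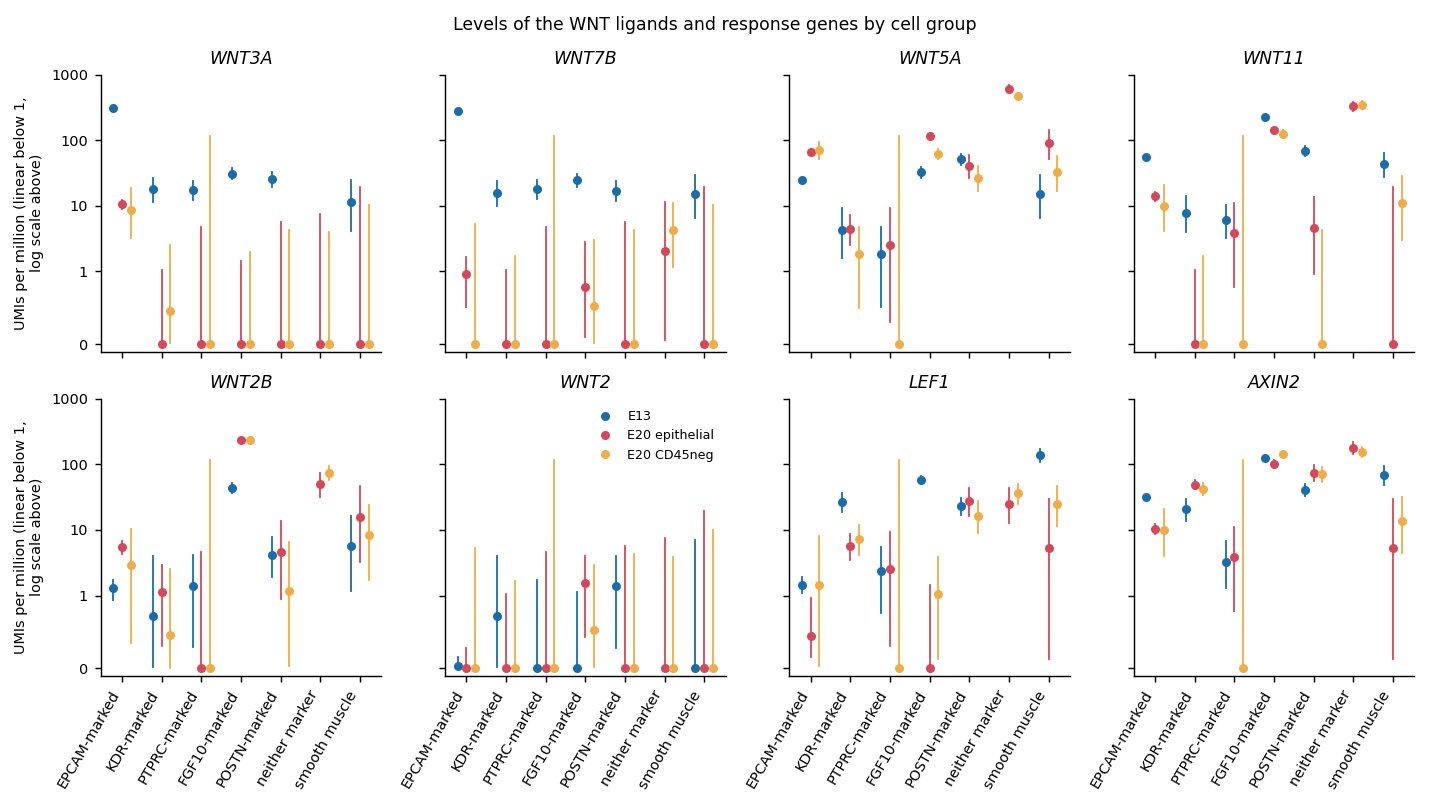
Level of each gene in CPM (linear below 1, log scale above) for 7 cell groups; points are 1 library each and lines are exact Poisson 95% intervals. WNT3A and WNT7B stood at 307 and 280 in the E13 EPCAM-marked group and at 10.5 and 0.964 in that of the E20 epithelial library, while WNT5A reached 612 in the E20 clusters with neither marker.

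WNT3A, a ligand that activates the beta-catenin branch, measured 307 CPM (301 to 313) in the E13 EPCAM-marked nuclei. It measured 27.1 CPM (23.1 to 31.6) in COL1A2-marked, 17.9 (11.6 to 26.4) in KDR-marked and 17.2 (12.1 to 23.8) in PTPRC-marked nuclei. The epithelial level was 11.3-fold the mesenchymal one (counting interval 9.69 to 13.3), and the intervals of the 3 other groups lay far below it. Every EPCAM-marked cluster carried WNT3A, from 63.5 CPM in 63 nuclei to 421 CPM in the cluster led by ADAMTS18. The cluster led by the surfactant protein gene SFTPA1 held 130 CPM and the cluster led by SHH, which encodes the epithelial hedgehog signal, held 277 CPM.

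WNT7B, the ligand known from mouse lung epithelium, followed WNT3A across the E13 clusters. It measured 280 CPM (275 to 286) in EPCAM-marked nuclei, and 21.0 (17.5 to 25.0), 15.7 (9.86 to 23.8) and 17.7 (12.5 to 24.3) in the COL1A2-, KDR- and PTPRC-marked nuclei. The epithelial level was 13.4-fold the mesenchymal one (11.2 to 16.1). Across the 19 E13 clusters the Pearson correlation of the log2(CPM + 10) levels of WNT3A and WNT7B was 0.98, the highest among the members. Among 4387 other genes, those most like WNT3A were KIAA0319L, NKX2-1, the lung epithelial transcription factor, and EGF, at 0.98, 0.98 and 0.97. Those most like WNT7B were KIAA0319L, ORC3 and NKX2-1. The clusters come from 1 library and differ in depth.

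Epithelial marker RNA was also found outside the epithelium. In COL1A2-marked nuclei EPCAM stood at 22.6% of its level in EPCAM-marked nuclei, CDH1 at 14.5%, WNT3A at 8.84% and WNT7B at 7.48%. In PTPRC-marked nuclei the same shares were 11.9%, 13.1%, 5.62% and 6.31%. In KDR-marked nuclei they were 13.4%, 9.91%, 5.82% and 5.61%. In these groups WNT3A and WNT7B were thus below the shares of the epithelial markers. Their levels there are not read as expression, and the part of free RNA or doublets in them was not tested. An E13 cluster of 85 nuclei that was given no group held 167 CPM of WNT3A. It was not set against these shares. In PTPRC-marked nuclei WNT5A, WNT11 and AXIN2, at 7.58%, 10.8% and 10.2%, were also below the share of EPCAM. The size of the epithelial excess depended on the cells kept. The log2 ratio between EPCAM- and COL1A2-marked nuclei was 3.45 for WNT3A and 3.68 for WNT7B, against 1.92 and 2.04 with doublets kept and 2.13 and 1.999 with at least 1000 genes per nucleus.

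At E20 both ligands were low. In the EPCAM-marked cells of the E20 epithelial library WNT3A measured 10.5 CPM (8.87 to 12.4), and in those of the E20 CD45neg library 8.64 CPM (3.17 to 18.8). WNT7B was found in 13 UMIs of the first (0.964 CPM, 0.513 to 1.65) and in 0 UMIs of the second. The log2 ratio of E20 over E13, relative to the median of all genes compared, was -4.63 and -4.87 for WNT3A in the 2 E20 libraries. It was -7.05 for WNT7B in the E20 epithelial library, and WNT7B was at least 64.9-fold lower in the CD45neg library, taking 3 UMIs as the floor of that group.

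The remaining WNT3A was uneven over the E20 epithelium. In the E20 epithelial library the cluster led by CA3B, B3GAT2 and EMP1 (605 cells) held 112 of the 142 WNT3A UMIs and measured 36.7 CPM. The cluster led by PDIA2 and carrying LAMP3, a marker of surfactant-producing cells (480 cells), held 2 UMIs and measured 0.486 CPM. WNT11 stood at 44.6 CPM in the first of these clusters and at 8.74 CPM in the second. WNT5A ran the other way, at 51.1 and 83.5 CPM.

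WNT5A, the ligand best known for signalling through ROR receptors, had no clear compartment at E13. It measured 24.6 CPM (23.0 to 26.3) in EPCAM-marked, 37.8 (33.0 to 43.1) in COL1A2-marked, 4.29 (1.57 to 9.34) in KDR-marked and 1.86 (0.508 to 4.77) in PTPRC-marked nuclei. The highest E13 cluster was the POSTN-marked one led by ADGRD1, with 77.3 CPM. Among the genes most like WNT5A over the E13 clusters were ADD3 and SORCS2, at correlations of 0.89 and 0.87.

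At E20 WNT5A was concentrated in the mesenchymal clusters with neither marker, those low in both FGF10 and POSTN. These measured 612 CPM (544 to 686) in the epithelial library and 475 CPM (432 to 521) in the CD45neg one. The FGF10-marked cells measured 115 and 62.2 CPM, and the POSTN-marked cells 40.3 and 26.9. The level in the clusters with neither marker was 5.30-fold (4.50 to 6.25) and 7.64-fold (6.22 to 9.45) that of the FGF10-marked cells. The EPCAM-marked cells measured 65.6 CPM (61.3 to 70.02) and 70.6 CPM (52.2 to 93.3). In the 90 EPCAM-marked cells of the CD45neg library, 48 of the 49 WNT5A UMIs came from the cluster of 58 cells that also carried SFTPC and LAMP3. Relative to the median gene, WNT5A was higher at E20 by 1.49 and 1.61 (log2) in the EPCAM-marked and by 1.57 and 1.29 in the COL1A2-marked group.

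WNT11, a ligand known for directing cell polarity and movement, was mesenchymal with an epithelial component. At E13 it measured 56.0 CPM (53.5 to 58.5) in EPCAM-marked, 153 (143 to 163) in COL1A2-marked, 7.86 (3.93 to 14.1) in KDR-marked and 6.06 (3.23 to 10.4) in PTPRC-marked nuclei. Within the mesenchyme the cluster led by ADAM12 and carrying VEGFD and FGF10 measured 340 CPM (313 to 369). The other FGF10-marked cluster, led by DSCAM and carrying BMP5, measured 102 CPM (87.1 to 119). The genes closest to WNT11 over the E13 clusters were PKDCC, ZNF821 and SLIT2, at 0.86, 0.84 and 0.83.

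At E20 the WNT11 of the mesenchyme was close to its E13 level in CPM, at 135 CPM (124 to 147) and 140 CPM (129 to 152). Relative to the median gene it stood at -0.69 and -0.78 (log2), and its values against genes of like spacing are given below. Mesenchymal WNT11 was highest where WNT5A was highest, at 330 CPM (281 to 385) and 349 CPM (312 to 389) in the clusters with neither marker. The FGF10-marked cells measured 141 and 125 CPM, and the POSTN-marked cells held 3 UMIs and 0 UMIs. No WNT11 UMI was found in the KDR-marked cells of either E20 library, which allows up to 0.843 and 1.38 CPM at the floor of 3 UMIs. In the epithelium WNT11 measured 13.9 CPM (12.02 to 16.1) and 10.1 CPM (4.05 to 20.8) at E20, and was lower than at E13 by a relative log2 ratio of -1.82 and -2.24.

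WNT2B, a ligand of the beta-catenin branch known from mouse lung mesenchyme, was mesenchymal and mesothelial at E13. There it measured 25.8 CPM (21.9 to 30.2) in COL1A2-marked nuclei and 1.29 (0.938 to 1.72) in EPCAM-marked nuclei, a 20.1-fold difference (14.3 to 28.6). The small mesothelial group of 93 nuclei, marked by WT1, measured 103 CPM (78.0 to 133). The cluster led by ADAM12 measured 72.4 CPM (60.2 to 86.3), and the BMP5-carrying cluster 11.99 CPM (7.22 to 18.7). The mesothelial and ADAM12-led clusters were thus the high ones, and the nearest genes were HPS1, HPSE2 and EFEMP1, at 0.87, 0.87 and 0.86.

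At E20 WNT2B belonged to the FGF10-marked cells, with 234 CPM (216 to 254) and 233 CPM (212 to 256) in the 2 libraries. The clusters with neither marker measured 49.5 and 74.4 CPM, and the POSTN-marked cells 4.65 and 1.17. Both FGF10-marked clusters of each library were high, at 244 and 181 CPM in the E20 epithelial and at 270 and 196 CPM in the CD45neg library. Relative to the median gene WNT2B was higher at E20 than at E13 by 2.09 and 1.60 (log2) in the COL1A2-marked group. Mesothelial cells formed no group of their own at E20.

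WNT2, the main mesenchymal ligand of the early mouse lung, was barely detected. It had 7 UMIs in the E13 library, 4 in the E20 epithelial and 1 in the E20 CD45neg library. COL1A2-marked cells held 3, 4 and 1 of these. The mesothelial group had 2 UMIs, or 3.61 CPM (0.437 to 13.05), and no other group reached 2 CPM. No comparison was made for it.

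LEF1, a DNA-binding partner of beta-catenin that is also a response gene, was nearly missing from the epithelium in every library. At E13 it measured 1.46 CPM (1.09 to 1.92) in EPCAM-marked nuclei and 52.0 CPM (46.4 to 58.1) in COL1A2-marked nuclei, a 35.7-fold difference (26.4 to 48.9). KDR-marked nuclei measured 26.4 CPM (18.6 to 36.5) and PTPRC-marked nuclei 2.33 (0.757 to 5.44). The smooth muscle cluster, led by MYH11 and ACTG2, was the highest at 137 CPM (107 to 172). The BMP5-carrying cluster measured 95.3 CPM, which is 4.29-fold (2.99 to 6.30) the 22.2 CPM of the ADAM12-led cluster. The genes closest to LEF1 were MYL4, ZNF536 and SPOCK1, at 0.90, 0.88 and 0.88.

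At E20 LEF1 was lower in the mesenchyme and at or near 0 in the FGF10-marked cells. The COL1A2-marked group measured 7.98 CPM (5.42 to 11.3) and 14.6 CPM (11.1 to 18.8), a relative log2 ratio of -3.08 and -2.42 over E13. The FGF10-marked cells held 0 UMIs in the E20 epithelial and 2 UMIs in the CD45neg library, against 57.3 CPM at E13. The POSTN-marked cells measured 27.9 CPM (16.5 to 44.1) and 16.4 CPM (8.96 to 27.5), next to 23.0 CPM (17.1 to 30.3) at E13. Smooth muscle of the CD45neg library measured 24.7 CPM from 9 UMIs. The highest E20 cluster was one of 41 cells in the CD45neg library, led by HHIP and carrying RSPO2 and WIF1, with 94.97 CPM (55.3 to 152). In KDR-marked cells LEF1 was lower at E20 by a relative log2 ratio of -3.17 and -2.89.

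AXIN2 was highest in the mesenchyme at E13. It measured 31.9 CPM (30.1 to 33.9) in EPCAM-marked, 89.4 (82.0 to 97.3) in COL1A2-marked, 20.7 (13.9 to 29.8) in KDR-marked and 3.26 (1.31 to 6.72) in PTPRC-marked nuclei. The EPCAM-marked clusters were alike, between 21.8 and 39.5 CPM. Much of the mesenchymal excess lay in 1 cluster: the BMP5-carrying cluster measured 190 CPM (169 to 213) against 64.8 CPM (53.3 to 78.1) in the ADAM12-led cluster. Without the BMP5-carrying cluster, a setting added after seeing the data, the log2 ratio of EPCAM- over COL1A2-marked nuclei went from -1.46 to -0.72, which is within 2-fold. This cluster also carried STMN2, listed as a neuronal marker, while TUBB3, ELAVL4 and SNAP25 stood at 0, 7.57 and 1.26 CPM there. FAT1, FGFRL1 and PTPRD were the genes closest to AXIN2, at 0.87, 0.86 and 0.84, and LEF1 and AXIN2 correlated at 0.59.

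FGF10-marked clusters carrying BMP5 were also AXIN2-rich at E20, and whether they correspond to the E13 cluster was not tested. In the E20 epithelial library the FGF10-marked cluster led by ANGPT1 and carrying BMP5 measured 222 CPM (178 to 274), 2.74-fold (2.09 to 3.56) the 81.0 CPM of the COL1A1-led FGF10-marked cluster. In the CD45neg library the FGF10-marked cluster carrying ANGPT1 and BMP5 measured 209 CPM (180 to 240), 2.66-fold (2.03 to 3.52) the 78.5 CPM of the other one. At E13 the BMP5-carrying cluster stood at 2.93-fold (2.35 to 3.68) the ADAM12-led one. LEF1 was high with AXIN2 in the BMP5-carrying cluster of E13, while it had 0 UMIs and 2 UMIs in those of E20. The HHIP-led cluster of the CD45neg library, in which both were high, measured 274 CPM of AXIN2 (203 to 362). The plot by cluster sets these values side by side.

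**Figure D2:**
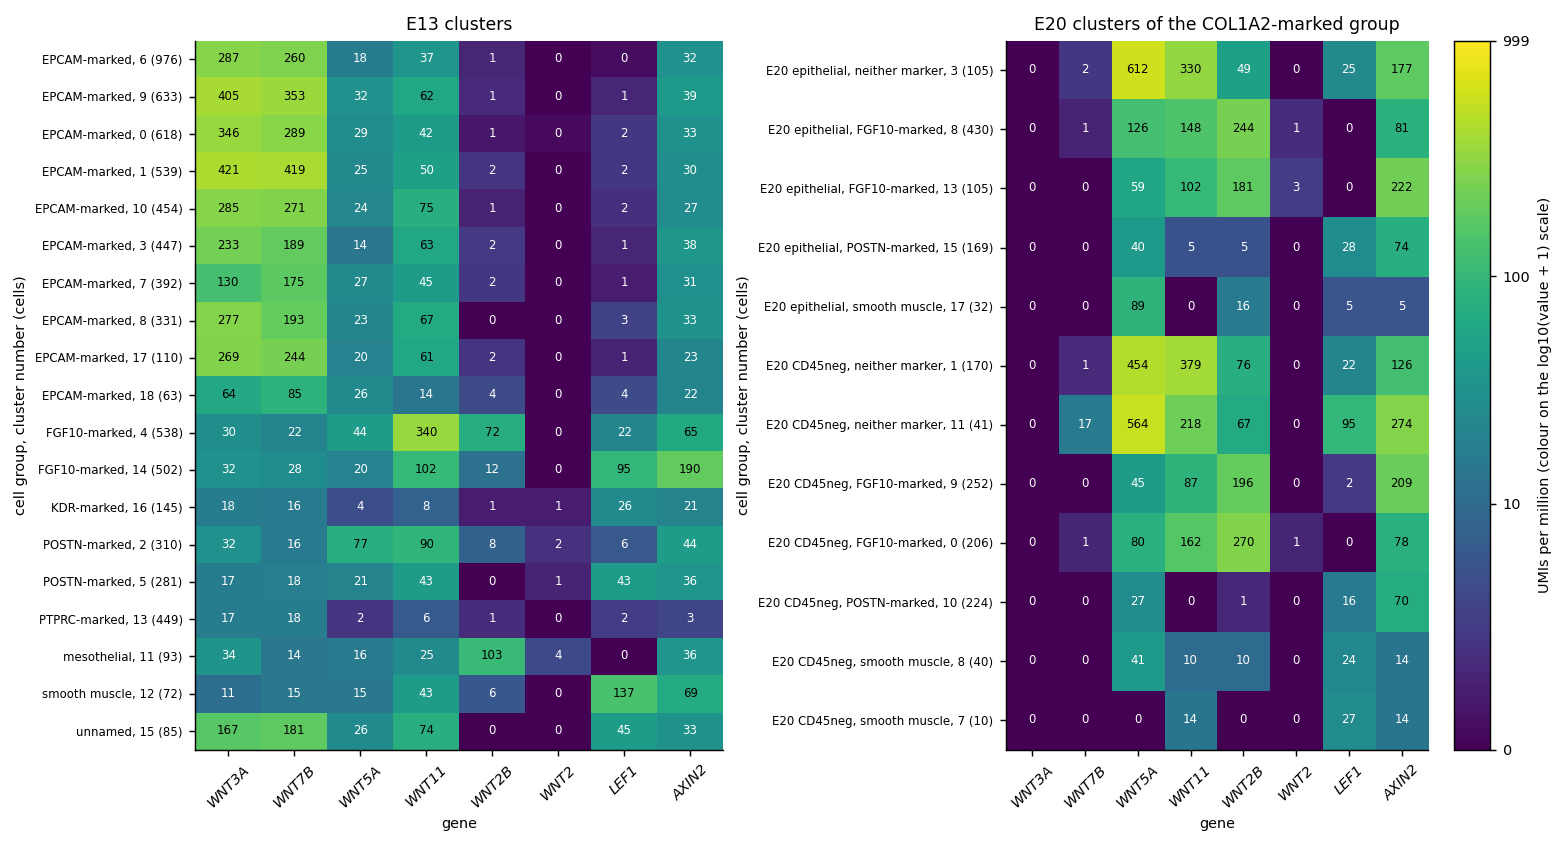
Level of each gene in CPM, printed in each box and coloured on a log10(value + 1) scale, in the 19 clusters of the E13 library (left) and in the clusters of the COL1A2-marked group of both E20 libraries (right). AXIN2 stood at 190 in the BMP5-carrying E13 cluster 14 and at 222 and 209 in clusters 13 and 9 of the E20 libraries, where LEF1 was at or near 0.

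At E20 AXIN2 was low in the epithelium and high in the mesenchyme and endothelium. The EPCAM-marked cells measured 10.2 CPM (8.60 to 12.1) and 10.1 CPM (4.05 to 20.8). The COL1A2-marked cells measured 102 CPM (92.6 to 113) and 119 CPM (108 to 130), and the KDR-marked cells 49.2 (42.1 to 57.0) and 42.2 (34.0 to 51.8). The mesenchymal level was 10.0-fold (8.23 to 12.2) and 11.8-fold (5.67 to 29.4) the epithelial one, against 2.80-fold (2.52 to 3.11) at E13. Within the endothelium the cluster led by CA4 measured 53.3 CPM in the E20 epithelial library and that led by SEMA3G 13.6 CPM, the latter from 5 UMIs. In smooth muscle AXIN2 was low at E20, with 1 UMI and 5 UMIs, against 69.3 CPM at E13.

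Across stages, 5 members reached 20 CPM in the EPCAM-marked group of either stage. Of these, WNT3A, WNT7B, WNT11 and AXIN2 were more than 2-fold lower in both E20 libraries relative to the median gene, and WNT5A was higher. In the E20 epithelial library 37.2% of all 6120 genes were lower by that rule and 34.7% higher, and in the CD45neg library 36.6% and 34.8%. The shift between stages went with the distance between neighbouring genes, used as a stand-in for gene length. In the EPCAM-marked group of the E20 epithelial library the median relative log2 ratio was 1.49 in the most closely spaced of 5 equal groups of genes and -2.18 in the most widely spaced. Set against the median of their own spacing group, WNT11 and AXIN2 stood at 0.35 and 0.73 in that library and at -0.18 and 0.61 in the CD45neg library, all within 2-fold of genes with like spacing. In the E20 epithelial library WNT3A and WNT7B stood at -3.44 and -5.87 against theirs, and WNT5A at 3.66.

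In the COL1A2-marked group 7 members were compared. WNT2B and WNT5A were more than 2-fold higher in both E20 libraries, where 27.2% and 26.4% of all genes were. WNT3A, WNT7B and LEF1 were more than 2-fold lower, where 33.7% and 32.2% of all genes were. Of these, WNT3A and WNT7B had at E13 stood below the share of epithelial marker RNA in this group. AXIN2 and WNT11 were within 2-fold, at -0.32 and -0.25 for AXIN2 and -0.69 and -0.78 for WNT11. Against genes of like spacing both were past 2-fold higher at E20, at 1.57 and 1.66 for AXIN2 and 1.20 and 1.13 for WNT11. By that measure LEF1 stood at -2.21 and -1.64, WNT2B at 2.12 and 1.61 and WNT5A at 2.43 and 3.19. Spacing groups were drawn anew for each comparison. WNT5A fell in a group with a median of -0.863 in the E20 epithelial library and of -1.91 in the CD45neg library, so its values are not alike in this respect. In the KDR-marked group, where LEF1 and AXIN2 were compared, 0 members were higher (all genes 22.7% and 24.2%) and LEF1 was lower (31.5% and 30.4%). AXIN2 was within 2-fold there, at 0.09 and -0.18. Against genes of like spacing it was past 2-fold higher, at 1.96 and 1.63, and LEF1 stood at -2.36 and -2.12.

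The E20 libraries gave like levels for the members. No member compared was more than 2-fold apart between them in either direction. In the EPCAM-marked group 0.954% of all genes were higher and 0.772% lower in the E20 epithelial library, and WNT5A stood at -0.10. In the COL1A2-marked group 2.07% were higher and 0.48% lower, and WNT2B, WNT5A, WNT11 and AXIN2 stood at 0.50, 0.29, 0.09 and -0.07. In the KDR-marked group 0.589% were higher and 0.454% lower, and AXIN2 stood at 0.29.

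Of the 94 WNT pathway genes listed, 83 were in the table. At E13, 39 reached 20 CPM in EPCAM- or COL1A2-marked nuclei, and 5 were more than 2-fold higher and 18 more than 2-fold lower in the epithelium, where 13.3% and 16.2% of all genes were. Their median relative log2 ratio was -0.70, where that of all genes is 0 by construction. In the E20 epithelial library 3 of 39 were higher and 22 lower, where 15.2% and 20.6% of all genes were. In the E20 CD45neg library 3 of 39 were higher and 21 lower, where 16.9% and 22.5% of all genes were. The members are part of these counts. Outside the members, the stage ratios of pathway genes below were not set against genes of like spacing. They thus hold the shift with spacing given above. In the COL1A2-marked group of the E20 epithelial library the median relative log2 ratio was 0.989 in the most closely spaced genes. It was -1.895 in the most widely spaced.

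For ligand release and reception, WLS, the carrier that WNT proteins need for secretion, measured 52.0 CPM in the epithelium and 94.6 in the mesenchyme at E13. At E20 it measured 110 and 163 CPM in the E20 epithelial library, and reached 344 CPM in the cluster with neither marker, which was also the one with the most WNT5A. WNT1 reached 63.2 CPM in the 14 PTPRC-marked cells of the CD45neg library, from 2 UMIs. ROR2, a WNT5A receptor, measured 200.5 CPM in COL1A2-marked and 202 in KDR-marked nuclei at E13 and 4.12 and 8.71 CPM in the E20 epithelial library. ROR1 measured 99.2 CPM in the E13 epithelium, and 55.8 and 47.5 CPM at E20. In the mesenchyme it measured 89.8 CPM at E13, and 34.0 and 22.5 CPM at E20.

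Frizzled receptors divided by compartment at E20. FZD4 measured 160 CPM in KDR-marked and 75.7 in COL1A2-marked cells of the E20 epithelial library, and 4.004 in EPCAM-marked cells. FZD6 measured 190 CPM in KDR-marked and 53.2 in EPCAM-marked cells there. FZD2 measured 51.5 CPM in COL1A2-marked cells and 0 UMIs in KDR-marked cells. The co-receptors LRP5 and LRP6 were lower in the epithelium of the E20 epithelial library, by -1.99 and -3.94 in the relative log2 ratio. LRP6 was lower in COL1A2- and KDR-marked cells of that library too, by -2.21 and -3.10. LRP5 was lower in KDR-marked cells, by -2.09, and within 2-fold in COL1A2-marked cells, at -0.76. These values were not set against genes of like spacing. PTK7, a co-receptor of polarity signalling, measured 146 CPM in COL1A2-marked and 82.0 in EPCAM-marked cells.

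Of the secreted or membrane inhibitors, all 5 compared at E13 were more than 2-fold lower in the epithelium than in the mesenchyme, where 16.2% of all genes were. In the mesenchyme 4 of the 6 compared were more than 2-fold higher in the E20 epithelial library than at E13, and 3 in the CD45neg library, where 27.2% and 26.4% of all genes were. WIF1, which binds WNT proteins outside the cell, measured 136 CPM in COL1A2-marked nuclei at E13. It measured 608 and 1132 CPM at E20, with 4051 and 3882 CPM in the clusters with neither marker, the ones highest in WNT5A and WNT11. At E13 its highest group was smooth muscle, at 507 CPM. DKK3 measured 74.6 CPM at E13 and 376 and 308 CPM at E20. FRZB measured 6.16 CPM at E13 and 101.4 and 74.7 CPM at E20, and SFRP2 was highest in FGF10-marked cells at E20, at 395 and 247 CPM. APCDD1, a membrane inhibitor that is also a response gene, was highest in KDR-marked nuclei, at 357 CPM at E13 against 60.7 and 67.5 CPM at E20.

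R-spondins raise WNT sensitivity through LGR receptors. RSPO2 measured 37.0 CPM in COL1A2-marked nuclei at E13, where POSTN-marked nuclei held 65.8. At E20 it measured 87.8 and 120.5 CPM in the COL1A2-marked group, with 288 and 284 CPM in the clusters with neither marker. LGR4 measured 66.1 CPM in the E13 mesenchyme and 11.3 and 11.9 CPM at E20. LGR5 was endothelial, at 81.5 CPM at E13 and 10.1 and 11.5 CPM at E20.

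The cytoplasmic and nuclear parts moved less uniformly. DAAM1, a formin of the polarity branch, was higher in the E20 epithelium, by 2.97 and 2.62 in the relative log2 ratio, and PRICKLE1 was lower in the mesenchyme, by -2.47 and -2.98. In KDR-marked cells PRICKLE1 was lower as well, by -1.85 and -1.84. APC, a scaffold of the destruction complex, was lower in the epithelium by -2.58 and -2.71. It was also lower in COL1A2-marked cells, by -1.63 and -1.65, and in KDR-marked cells, by -1.07 and -1.20. TCF7, a relative of LEF1, measured 95.3 CPM in COL1A2-marked nuclei and 1.94 in EPCAM-marked nuclei at E13. In the COL1A2-marked group at E20 TCF7 measured 41.4 and 67.8 CPM, a relative log2 ratio of -1.70 and -1.14. At E20 TCF7 was highest in POSTN-marked cells, at 139 and 173 CPM. LEF1 also remained in POSTN-marked cells, though its highest E20 cluster was the HHIP-led one. TCF7L2 was present in all main groups, from 102 to 224 CPM at E13. The co-repressor TLE1 measured 370 CPM in the E13 mesenchyme and 20.3 and 30.2 CPM at E20. PYGO2 and BCL9L, co-factors of beta-catenin, were higher in the E20 mesenchyme, by 2.79 and 2.64 and by 1.78 and 1.94. These rises are not read as particular to the mesenchyme. In the E20 epithelial library PYGO2 was highest in KDR-marked cells, at 225 CPM, and lowest in EPCAM-marked cells, at 26.5 CPM.

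Among the other response genes the directions were mixed in the mesenchyme. Those compared in the EPCAM- and KDR-marked groups were past 2-fold lower in both E20 libraries. In the EPCAM-marked group ZNRF3, TNFRSF19 and CCND1 stood at -4.20 and -5.22, -2.65 and -2.37, and -2.04 and -1.92 in the relative log2 ratio. Of all genes 37.2% and 36.6% were lower there. In the KDR-marked group these were APCDD1, LGR5, NKD1, TNFRSF19 and CCND1, where 31.5% and 30.4% of all genes were lower. NKD1, a feedback inhibitor, measured 474 CPM in COL1A2-marked, 104 in PTPRC-marked and 3.83 in EPCAM-marked nuclei at E13, and was highest in smooth muscle, at 833 CPM. In the E20 mesenchyme it measured 59.7 and 70.5 CPM, a relative log2 ratio of -3.48 and -3.39. TNFRSF19 measured 200 CPM in the E13 mesenchyme and 130 and 231 CPM at E20, highest in POSTN-marked cells at 305 and 373 CPM. CCND1, a cell cycle gene, was highest in the endothelium, at 525 CPM at E13 and 331 and 299 CPM at E20. MYC measured 99.99 CPM in the PTPRC-marked cells of the E20 epithelial library and 4.21 in its KDR-marked cells. BMP4 measured 41.5 CPM in the E13 mesenchyme and 289 and 544 CPM at E20, with 758 and 1012 CPM in the clusters with neither marker. Of the 9 response genes compared in the mesenchyme, 1 was higher and 6 were lower in the E20 epithelial library, and 1 and 5 in the CD45neg library. Of all genes 27.2% and 26.4% were higher and 33.7% and 32.2% lower in these libraries. These counts were not set against genes of like spacing.

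**Figure D3:**
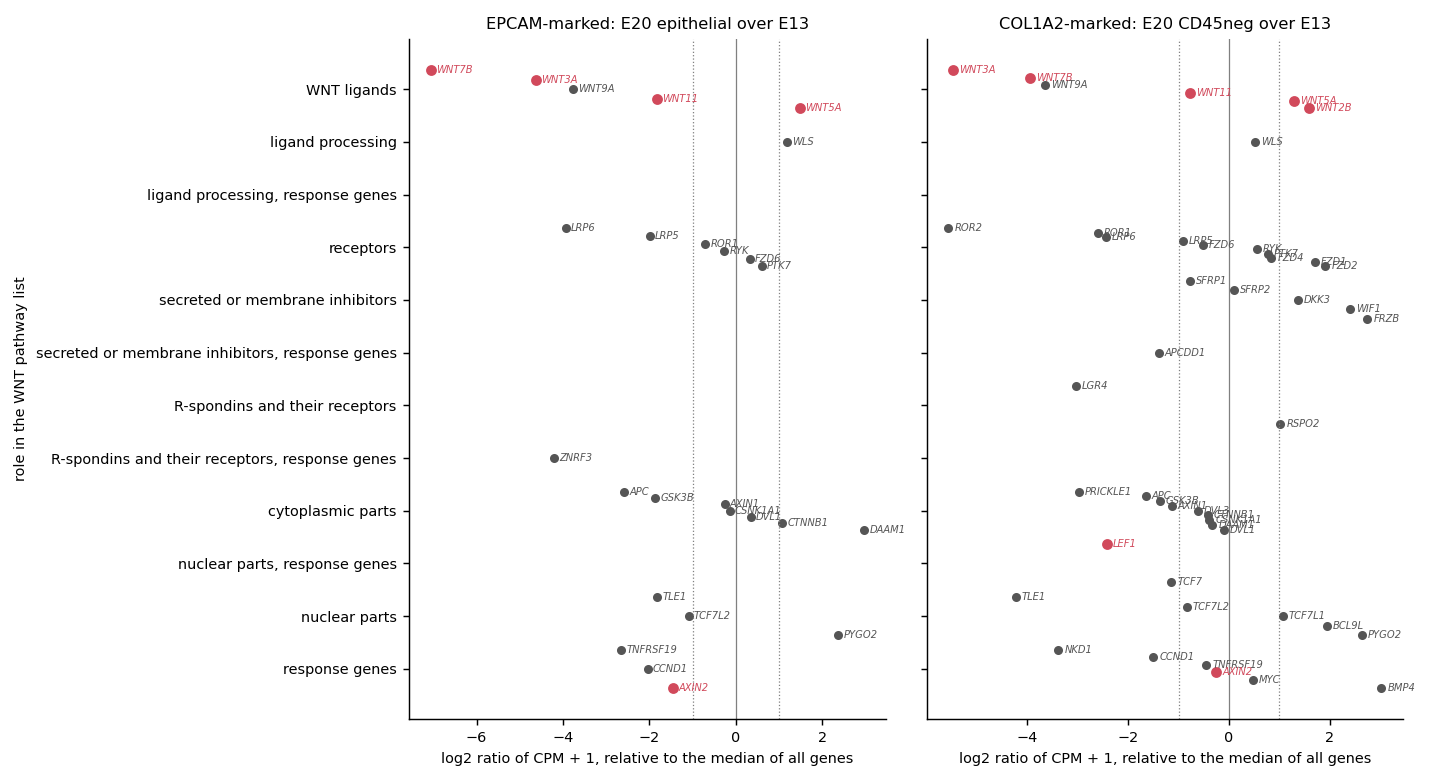
Log2 ratio of CPM + 1 between E20 and E13, relative to the median of all genes compared (solid line; dotted lines at 2-fold), for the pathway genes that reached 20 CPM, in rows by role; members are in red. In the EPCAM-marked group of the E20 epithelial library (left) WNT7B (-7.05) and WNT3A (-4.63) lay farthest to the left, and in the COL1A2-marked group of the CD45neg library (right) WNT2B (1.60) and WNT5A (1.29) lay to the right of the median. The ratios shown are not set against genes of like spacing.

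The E13 chromatin was measured in the same nuclei. Accessibility is given in counts-per-million of peak counts (peak CPM), a peak's counts scaled by all peak counts of a group. A peak's distance is the deposited one, with 0 for a peak listed as overlapping the gene. Where it is not 0, it is signed and runs from a start of the gene. A peak listed at such a distance can thus also lie within the gene. Of the 89 peaks, 10 were listed as promoter peaks and 14 were also assigned to another gene. Of the 89, 45 were highest in EPCAM-marked and 31 in COL1A2-marked nuclei, where 38.9% and 23.2% of all peaks were. By the share of nuclei with a count, 18 instead of 31 were highest in COL1A2-marked nuclei. The groups differed in depth, with 4422 peak counts per COL1A2-marked nucleus, 7488 per EPCAM-marked, 11229 per KDR-marked and 4026 per PTPRC-marked nucleus. The part of depth in that change was not tested. By counts 9 were highest in KDR-marked and 4 in PTPRC-marked nuclei, where 18.1% and 19.8% of all peaks were. By the rule of more than 2-fold over the other 3 groups together, 33 were called for EPCAM-marked nuclei (background 29.9%), 25 for COL1A2-marked (17.4%), 3 for KDR-marked (9.45%) and 0 for PTPRC-marked nuclei (9.46%). A peak can be called for more than 1 group, and the genes differed among themselves.

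WNT3A followed its RNA. Of its 13 peaks, 9 were called for EPCAM-marked nuclei and 0 for COL1A2-marked nuclei, where 29.9% and 17.4% of all peaks were. Of the 13, 4 were also assigned to gga-mir-6713. The most accessible, on chromosome 2 from 2591645 to 2592555 (galGal6, per the submitters' processing notes), measured 43.5 peak CPM in EPCAM-marked nuclei and 2.55 in the others together. The promoter peak at 2633532 to 2634445 measured 17.4 and 5.29. The peak at 2612058 to 2612957 measured 19.5 and 0.638.

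WNT7B was less exclusive. Of its 13 peaks on chromosome 1, 5 were called for EPCAM-marked and 1 for COL1A2-marked nuclei, where 29.9% and 17.4% of all peaks were. Of the 13, 4 were also assigned to another gene, some of the called ones among them. The promoter peak at 70837600 to 70838365 was among the 5, with 20.4 against 7.20 peak CPM. The peak at 70841984 to 70842671 measured 23.1 against 3.46. The most accessible peak, at 70868749 to 70869599 and listed at -25032 bp, was open in all groups and highest in KDR-marked nuclei, at 83.5 against 49.6.

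At WNT11 the promoter was epithelial while most distal peaks were mesenchymal. The promoter peak on chromosome 1 at 195315101 to 195316017 measured 45.8 peak CPM in EPCAM-marked nuclei against 6.29 in the others, although its RNA was 2.72-fold higher in the mesenchyme. Of the 22 peaks, 14 were highest in COL1A2-marked, 6 with the promoter peak in EPCAM-marked and 2 in PTPRC-marked nuclei. Of all peaks 23.2%, 38.9% and 19.8% were. By the 2-fold rule 13 were called for COL1A2-marked nuclei and 3, again with the promoter peak, for EPCAM-marked nuclei. For KDR-marked nuclei 1 was called. Of all peaks 17.4%, 29.9% and 9.45% were called for these groups. The strongest mesenchymal peaks lay at 195271097 to 195271995, with 67.9 against 1.91, and at 195412345 to 195413244, listed at 97176 bp, with 46.6 against 1.57. All 9 peaks listed at 37257 bp or farther on either side were called for COL1A2-marked nuclei. In the ADAM12-led cluster, which had the most WNT11 RNA, the promoter peak measured 4.92 peak CPM. The assignment of distant peaks to WNT11 is the deposited one and was not tested.

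AXIN2 had both kinds of peak. Of its 18 peaks on chromosome 18, 8 were called for EPCAM-marked and 5 for COL1A2-marked nuclei, where 29.9% and 17.4% of all peaks were. The promoter peak at 7611326 to 7612251 was open in every group and within 2-fold, with 61.4 peak CPM in KDR-marked nuclei and 43.4 in the others. The strongest mesenchymal peak, at 7645168 to 7645978, measured 29.9 against 1.86. It measured 34.3 in the BMP5-carrying and 32.8 in the ADAM12-led cluster, so it did not set apart the clusters that differed in AXIN2 RNA. The strongest epithelial call, at 7652335 to 7653235, measured 14.5 against 1.00.

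**Figure D4:**
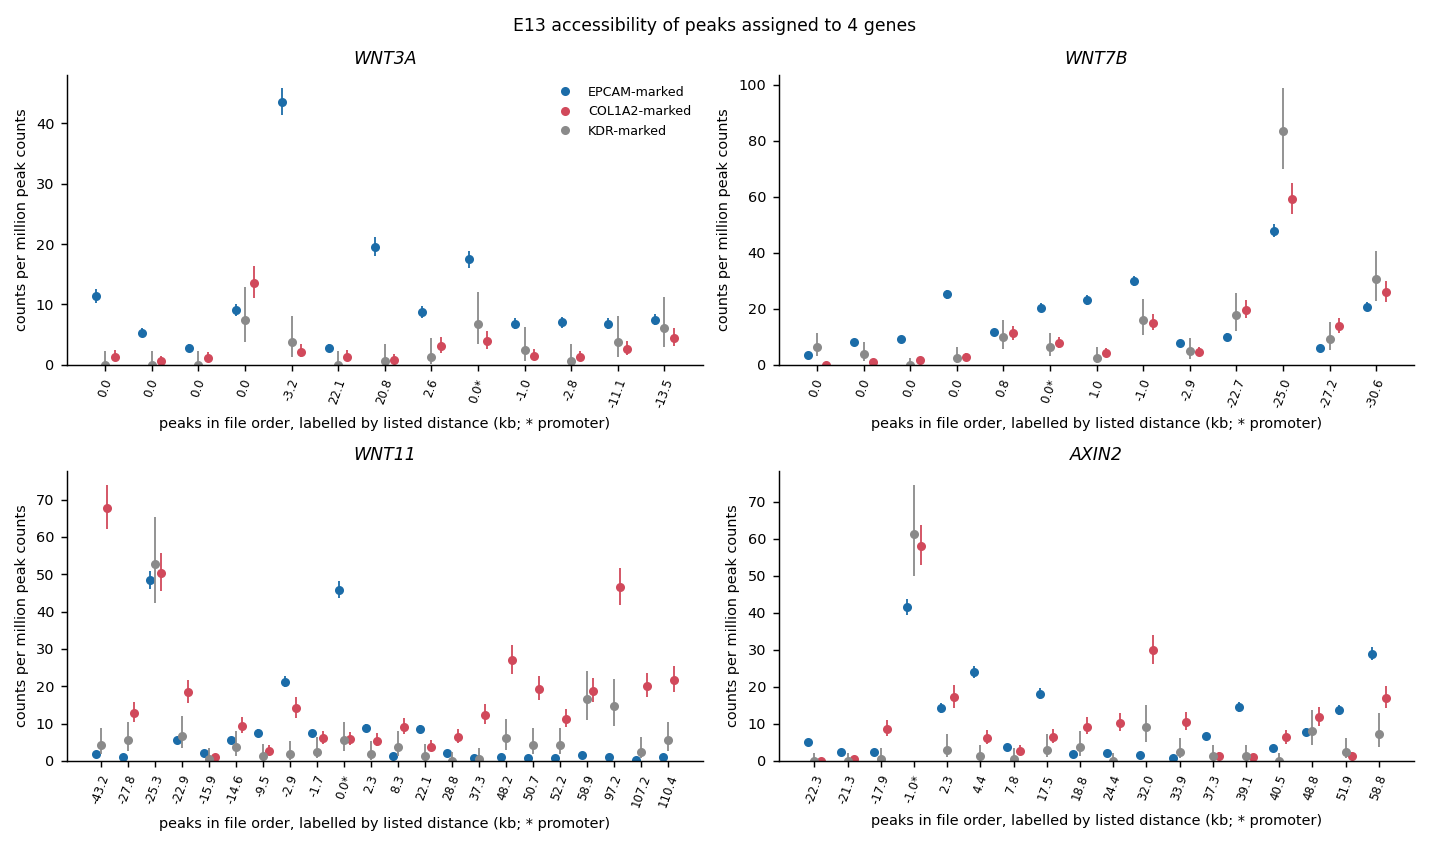
Accessibility at E13 in peak CPM for each peak assigned to WNT3A, WNT7B, WNT11 and AXIN2, with exact Poisson 95% intervals; peaks are labelled by the deposited distance in kb. The WNT11 promoter peak measured 45.8 in EPCAM-marked nuclei, while all 9 peaks listed at 37257 bp or farther on either side were higher in COL1A2-marked nuclei.

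LEF1 and WNT2B had peaks called for more than 1 group. Of the 5 LEF1 peaks on chromosome 4, the promoter peak at 37870873 to 37871690 was highest in COL1A2-marked nuclei, with 22.04 against 7.90 peak CPM. The promoter peak at 37872116 to 37872941 and the peak at 37885948 to 37886761 were highest in KDR-marked nuclei, with 39.9 against 12.4 and 25.8 against 2.85. The other LEF1 peaks, at 37866017 to 37866821 and 37888228 to 37889127, were less accessible and called for EPCAM-marked nuclei, with 3.89 against 1.00 and 6.41 against 1.91. Over the 5 mesenchymal clusters the second promoter peak measured 51.2 in smooth muscle, 38.8 in the BMP5-carrying, 26.7 in the EBF1-led, 17.6 in the ADAM12-led and 9.23 in the ADGRD1-led cluster. LEF1 RNA followed the same order, at 137, 95.3, 43.1, 22.2 and 5.95 CPM. The smooth muscle peak value rests on 17 counts in 7 nuclei. Its interval of 29.8 to 81.9 covers the value of the BMP5-carrying cluster. Over the main groups this promoter peak was higher in KDR-marked nuclei, at 39.9 against 25.1 in COL1A2-marked ones. LEF1 RNA there was 26.4 and 52.0 CPM. The peak at 37885948 to 37886761 did not follow the RNA within the mesenchyme. It was highest in POSTN-marked nuclei, at 13.6, with 4.54 in FGF10-marked nuclei and 6.02 in smooth muscle, the last from 2 counts. All 5 WNT2B peaks on chromosome 26 were shared with another gene, ENSGALG00000035270, and 3 were called for COL1A2-marked nuclei, where 17.4% of all peaks were. The strongest of these, at 3488294 to 3489024, measured 23.9 against 1.73. The peak with the most counts, at 3503090 to 3503993, overlapped the gene and was called for EPCAM-marked nuclei, with 23.2 against 3.56. The promoter peak was within 2-fold, with 18.5 in COL1A2-marked nuclei against 11.8.

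WNT5A and WNT2 also had accessible promoters. At WNT5A, on chromosome 12, the promoter peak at 8315507 to 8316341 measured 33.6 in COL1A2-marked nuclei and 26.5 in the others, within 2-fold. Of its 9 peaks 4 were called, all for EPCAM-marked nuclei, where 29.9% of all peaks were. The strongest, at 8318841 to 8319762, measured 19.3 against 2.01 and was also assigned to ENSGALG00000054043. The promoter peaks of WNT2 on chromosome 1, at 24839689 to 24840315 and 24840435 to 24841072, were accessible in every group, at up to 7.64 and 15.4 peak CPM, while the gene had 7 UMIs.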

How the data were processed

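The authors deposited raw UMI counts per gene and barcode for each RNA library and, for E13, raw accessibility counts for each peak in each nucleus. The versions used, per the file headers, were cellranger-arc 2.0.0 (E13) and cellranger 4.0.0 (E20), and the submitters' processing notes also name Seurat, Signac and galGal6. Whether intron reads were counted is not given in the sources used here. The members, gene lists and comparisons were chosen with earlier results of these data known.

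Barcodes with at least 500 genes were kept, at E20 with at most 20% mitochondrial UMIs, and the highest doublet scores were taken out, 0.8% for every 1000 cells. Libraries were clustered one by one with scanpy 1.11.5 (2000 variable genes without the WNT pathway list, 30 principal components, 15 neighbours, Leiden resolution 1). Clusters were named from 96 marker genes by thresholds set after seeing the data. Counts were summed per group. Log2 ratios used CPM + 1, genes of at least 20 CPM in the higher group, without mitochondrial, ribosomal protein and haemoglobin genes, and were taken relative to the median of the genes compared. A gene past 2-fold of that median was called, which is no test. The ratio calculation was run on simulated counts drawn from a shared profile with known fold changes. These held no shift with assay or gene spacing, so they do not bear on that shift. All 8 members are named, with every pathway gene that reached 50 CPM in a group and differed 4-fold between main groups of 1 library, and the 3 genes most like each member, of which 1 is not reported here. A scan for TCF/LEF motifs was planned and not run, since no genome was at hand, and no sequence is printed. Alternatives to cell filters, clustering, grouping and scaling are given below.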

Additional observations from a re-analysis of the deposited data

How the results depend on the processing

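No paired analysis was possible because each group is 1 library, and no replicate could be left out. Among recomputed ratios of single members 0 changed sign while past 2-fold, 305 stayed within the counting interval of the reported value and 102 moved beyond it. With at least 1000 genes per cell the log2 ratio of WNT7B between EPCAM- and COL1A2-marked nuclei at E13 went from 3.68 to 1.999. Of the recomputed counts 155 stayed within 1.5 times and 10 did not. With at least 1000 genes per cell, 2 rather than 4 members were highest in the COL1A2-marked group of the E20 CD45neg library, and the cause was not tested. Counting genes with at least 1 UMI raised the members higher in the EPCAM-marked group of the E20 epithelial library over E13 from 1 to 2. It raised the pathway genes from 5 to 8 higher and from 14 to 25 lower, and in the COL1A2-marked group of the CD45neg library from 12 to 20 higher. In the main setting 34.7% of all genes were higher and 37.2% lower in the first comparison, and 26.4% were higher in the second. The shares of all genes under the alternatives are not given here, so these counts are not read as a result about the pathway. A minimum of 50 CPM gave 2 pathway genes higher in the first comparison, and 1 member lower instead of 3 in the second, LEF1. Among the 10 promoter peaks alone, 4 were highest in EPCAM-marked and 3 in COL1A2-marked nuclei. Of all peaks of any type 38.9% and 23.2% were. By the share of nuclei with a count, which was not adjusted for depth, 18 of the 89 peaks instead of 31 were highest in COL1A2-marked nuclei. Without the haemoglobin-led EPCAM-marked cluster of E13, without the BMP5-carrying cluster or without shared barcodes, all settings added after seeing the data, no count moved beyond 1.5 times. Depth limits the 14 PTPRC-marked cells of the CD45neg library most, where a gene with 0 UMIs may stand at up to 94.8 CPM.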
